A study of Mus musculus with 6 samples.

Results

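miR-132 and miR-212 are a pair of related microRNAs (miRNAs), short RNAs that lower the stability and translation of the mRNAs they pair with. Their members here were taken by name, as every arm of either miRNA in the table of small RNA values, and this gave 4 of the 1983 rows: miR-132-3p, miR-132-5p, miR-212-3p and miR-212-5p. An arm is the 5p or the 3p strand of a precursor hairpin. All 4 were above the floor of the table, log2(10) = 3.32, in all 6 libraries, so that 0 of the 4 lay at the floor in any library and 4 of 4 entered the 329 rows tested. The values came from epididymal white adipose tissue (WAT) of male C57BL6/J mice, 3 wild type (Wt) and 3 transgenic for angiotensinogen (Agt Tg). The transgene is driven by the aP2 promoter, which is active in fat cells and is also known to be active in some macrophages. The labels give a chow diet for both groups, whereas the study's methods give a low fat diet; age is not given in the sources used here. Each library was counted as 1 mouse on the basis of its own number in the labels, which name no animals, so p-values measure the spread between these samples. Sequencing depth ran from 6387766 reads (Agt Tg replicate 2) to 10562634 reads (Agt Tg replicate 3), with 7480766, 7838874 and 9821467 for the Wt libraries in order of their number and 10367417 for Agt Tg replicate 1.

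Angiotensinogen is the precursor of angiotensin II (Ang II), the peptide that acts through the AT1 receptor to constrict vessels, retain salt and drive inflammation and fibrosis. In heart and vessel cells Ang II is known to raise miR-132 and miR-212 through the AT1 receptor and its Gq and ERK signalling, and their shared primary transcript is a classical target of the transcription factor CREB, best known from active neurons. In fat, miR-132 has been tied to nutrient stress and to the deacetylase Sirt1, which restrains inflammatory signalling. The comparison of genotypes therefore asked whether adipose tissue with extra angiotensinogen differs in the level of these miRNAs.

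The mature sequences are shown because the 2 miRNAs resemble each other in one arm only. They were read from RefSeq (GRCm38.p6), where 4 of 4 names matched the mouse entries; capitals mark the seed, bases 2 to 8, the part that chooses targets. The rows of the table carry human names, and the human sequences were not compared here.
miR-132-3p: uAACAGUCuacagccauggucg
miR-212-3p: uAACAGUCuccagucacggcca
miR-132-5p: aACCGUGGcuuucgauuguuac
miR-212-5p: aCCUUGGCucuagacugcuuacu
The 2 3p arms share the seed AACAGUC, and 0 of the other mature mouse sequences among the 1738 in the table carry it. Over their 22 bases, 17 are identical, including the first 9, and the substitutions from miR-132-3p to miR-212-3p, counted from 1 at the 5′ end, are A10C, C14U, U17C, U20C and G22A. The 5p seeds, ACCGUGG and CCUUGGC, differ from each other and are carried by 0 other mature mouse sequences. None of the 4 rows shared all its values with another row, so that the 3p arms were counted apart.

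Both hairpins lie close together on chromosome 11 on the plus strand of GRCm38, Mir212 at chr11:75173388-75173478 and Mir132 at chr11:75173682-75173747, with 203 bases between them. In GENCODE M21 both are inside an intron of the 1 annotated transcript of 1700016P03Rik (chr11:75172560-75177633, the same strand), a non-coding gene, with 0 of its exons overlapping either. The neighbouring protein-coding genes, Hic1, Ovca2 and Dph1, are on the other strand. miR-212-5p and miR-212-3p occupy 75173403 to 75173425 and 75173443 to 75173464 of the chromosome, and miR-132-5p and miR-132-3p occupy 75173686 to 75173707 and 75173723 to 75173744.

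The seed shared by the 3p arms pairs with the letters GACTGTT in a 3′ untranslated region (UTR), and GACTGTTA adds the A that strengthens pairing. Known targets of miR-132 from other work show what such a match looks like. These genes were chosen with the data already seen, their mRNA was not measured here, and capitals mark the match.
Sirt1, a deacetylase: ttacagtgaaGACTGTTttcagctc
Rasa1, a brake on Ras: atgaccatttGACTGTTcactgact
Foxo3, a transcription factor of stress and cell survival: acccagcagaGACTGTTAgcagccc
Ep300, a coactivator of CREB: tcactgtataGACTGTTAaatttga
The matches of Sirt1 (chr10:63319180-63319186, minus strand) and Rasa1 (chr13:85215628-85215634, minus strand) have 7 bases, and those of Foxo3 (chr10:42186163-42186169, minus strand) and Ep300 (chr15:81652016-81652022, plus strand) continue into the A. Among 21020 mouse genes, 10.7% hold the 7 letters in their longest 3′ UTR and 2.35% hold all 8. Among UTRs of similar length the 7 letters occur in 13.3% for Sirt1 and 10.5% for Rasa1, and the 8 letters in 6.54% for Foxo3 and 2.42% for Ep300. Foxo3 holds 1 further match of 7 letters, and Arhgap32, a further known target searched, holds 1 match; their UTRs are long, and 29.8% and 41.1% of UTRs of similar length hold the 7 letters. A match of letters describes the UTR and does not show binding.

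Each value is the log2 of reads scaled to a library of 10000000, called a log2 value here. miR-132-3p, the guide strand of its hairpin, had log2 values of 9.57, 9.31 and 9.85 in Wt replicates 1, 2 and 3 (568, 498 and 904 reads). For Agt Tg replicates 1, 2 and 3 it had 9.57, 9.42 and 9.06 (788, 439 and 565 reads). The groups overlapped: Wt replicate 3 was the highest library and Agt Tg replicate 3 the lowest, with the other 4 between them. The means were 9.58 ± 0.27 for Wt and 9.35 ± 0.26 for Agt Tg mice (SD, n = 3).

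miR-212-3p, which reads the same seed matches, had log2 values of 6.69, 6.08 and 6.55 in Wt replicates 1, 2 and 3 (77, 53 and 92 reads). For Agt Tg replicates 1, 2 and 3 the values were 6.47, 5.65 and 5.65 (92, 32 and 53 reads). Agt Tg replicates 2 and 3 were the lowest of the 6, while Agt Tg replicate 1 lay among the Wt libraries. Its means were 6.44 ± 0.32 in Wt and 5.92 ± 0.48 in Agt Tg mice (SD, n = 3).

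The other strand of that hairpin, miR-212-5p, had log2 values of 6.74, 5.48 and 6.38 in Wt replicates 1, 2 and 3 (80, 35 and 82 reads). For Agt Tg replicates 1, 2 and 3 they were 6.66, 5.40 and 5.65 (105, 27 and 53 reads). Each group held high and low libraries, and the means, 6.20 ± 0.65 and 5.90 ± 0.67 (SD, n = 3), differed by less than either SD.

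miR-132-5p, the passenger strand, was the lowest of the arms in every library, at 5.37, 4.35 and 5.11 in Wt replicates 1, 2 and 3 (31, 16 and 34 reads). For Agt Tg replicates 1, 2 and 3 it was at 5.56, 4.35 and 4.78 (49, 13 and 29 reads). Wt replicate 2 and Agt Tg replicate 2 were its lowest libraries, so the low values were not tied to a genotype. The means were 4.95 ± 0.53 in Wt and 4.90 ± 0.62 in Agt Tg mice (SD, n = 3). The 13 reads of Agt Tg replicate 2 have an exact 95% Poisson interval of 6.92 to 22.2 reads, where the floor stands for 6.39 reads, so that the interval stayed above the floor. Such intervals cover counting error only.

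**Figure D1:**
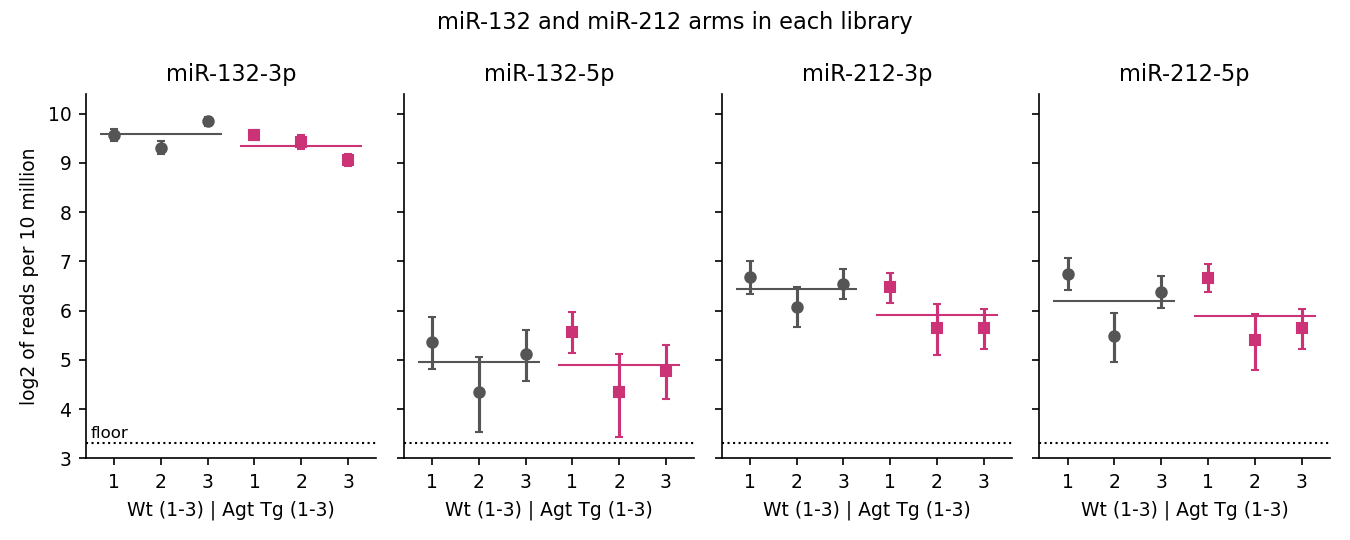
Log2 of reads per 10000000 for each arm in 3 Wt libraries (circles) and 3 Agt Tg libraries (squares), with exact 95% Poisson intervals as bars, group means as lines and the floor of 3.32 as a dotted line. All 24 values are above the floor, and in each arm the groups overlap.

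By mean log2 value over all 6 libraries, miR-132-3p stood at 9.46 (place 118 of the 1983 rows), miR-212-3p at 6.18 (place 219), miR-212-5p at 6.05 (place 224) and miR-132-5p at 4.92 (place 254). miR-132-3p was the highest and miR-132-5p the lowest of the arms in 6 of 6 libraries, while the 2 miR-212 arms did not differ beyond their spread. The most abundant row, miR-10b-5p, had a mean of 19.90, and miR-191-5p, a common reference miRNA, had 17.04, which is 190-fold more reads than miR-132-3p. How readily each sequence enters a library was not measured, so this order is one of reads. How fully mouse reads matched the human-named rows was not measured either.

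Directly above and below miR-132-3p in mean level were miR-1249 and miR-181d (9.57 and 9.54) and miR-133a and miR-340-5p (9.42 and 9.34). miR-212-3p lay between miR-196a-5p and miR-320b (6.28 and 6.20) and miR-424-5p and miR-5100 (6.18 and 6.15). miR-212-5p lay between miR-185-5p and miR-15b-3p (both 6.09) and miR-25-5p and miR-130b-5p (6.01 and 6.0), and miR-132-5p between miR-411-3p and miR-382-5p (5.11 and 5.03) and miR-139-3p and miR-615-5p (4.86 and 4.84). With 373 rows above the floor in any library, miR-132-3p was above the middle of the detected miRNAs and the other arms were below it.

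Before the genotypes were compared, the libraries were checked against markers of tissue and cell types. Of the 9 rows of an adipocyte list, 6 were tested and 3 were at the floor throughout (miR-103a-2-5p, miR-193b-3p and miR-365a-5p); these miRNAs are rich in fat but made elsewhere too, and the most abundant, miR-378a-3p, had a mean log2 value of 15.74. Wt replicate 2 stood apart. An epithelial list (18 rows, 7 tested) summed to 54820 reads per 10000000 there and to 678, 482, 628, 388 and 513 in Wt replicates 1 and 3 and Agt Tg replicates 1, 2 and 3. In that library it was led by miR-375 (log2 value 15.10), while 8 of the 18 rows, miR-429 and both arms of miR-96 among them, were at the floor throughout. A list for epididymis and testis (5 rows, 2 tested, led by miR-34c-5p, with miR-34b-5p and miR-34c-3p at the floor throughout) summed to 88164 there and to between 867 and 1436 in the other 5 libraries. In the same library the erythroid list was lowest, at 50991, and so was the adipocyte list, at 65026, beside 69343 in Agt Tg replicate 1 and 92780 to 98379 in the other 4. The genotype differences of the arms, of their share and ratios and of the pathway lists are therefore given with and without this library. In bulk tissue, fewer cells of a type and less RNA per cell cannot be told apart. The rows carry human names, so a row at the floor does not show that the mouse miRNA was absent.

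No arm passed the test for a difference between genotypes. miR-132-3p had a log2 fold change (Agt Tg over Wt) of −0.22 (standard error 0.26, limma adjusted p = 0.71). miR-132-5p had −0.05 (standard error 0.44, limma adjusted p = 0.949), and its sign turned under TMM scaling (0.07), which sets libraries against each other by their typical row. For miR-212-3p the value was −0.52 (standard error 0.35, limma adjusted p = 0.587), and for miR-212-5p −0.30 (standard error 0.48, limma adjusted p = 0.783). The threshold, a change of at least 2-fold with an unadjusted p of 0.05 or less, was reached by 0 of the 4 arms. Of all 329 rows tested, 16 (4.86%) reached it, and at a limma adjusted p under 0.05 there were 0 (0%), with 30 at an unadjusted p of 0.05 or less, and 0 also by limma-voom, with 32. The groups overlapped in 4 of 4 arms, while they did not overlap in 58 rows, or 17.6%, of those tested.

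The 95% intervals say how large a difference could have been missed. For miR-132-3p the interval ran from −0.83 to 0.38, that is from 0.563-fold to 1.3-fold, so that a change of 2-fold in either direction lay outside it. For miR-212-3p it ran from −1.35 to 0.32, with 1.25-fold as the upper bound, so that a doubling lay outside and a halving did not. The intervals of miR-212-5p (−1.42 to 0.82) and miR-132-5p (−1.07 to 0.98) were wider. A rise of 2-fold in Agt Tg tissue therefore lay outside the interval in 4 of 4 arms on the deposited values, at its edge for miR-132-5p.

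The median log2 fold change over all 329 rows was −0.19, and TMM scaling moved it to −0.06. Relative to that −0.19, the arms stood at −0.04 for miR-132-3p, 0.14 for miR-132-5p, −0.33 for miR-212-3p and −0.11 for miR-212-5p. A lower value than that of miR-212-3p was held by 23.1% of the rows tested, so this arm, too, was inside the bulk of the table. Without Wt replicate 2 the log2 fold changes were −0.35 for miR-132-3p, −0.35 for miR-132-5p, −0.70 for miR-212-3p and −0.66 for miR-212-5p, and 0 of the 4 reached the threshold, beside 23 of the 329 rows. The value of miR-212-3p was farthest from 0, at −0.79, without Agt Tg replicate 1, its highest library of that genotype (limma adjusted p = 0.304).

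**Figure D2:**
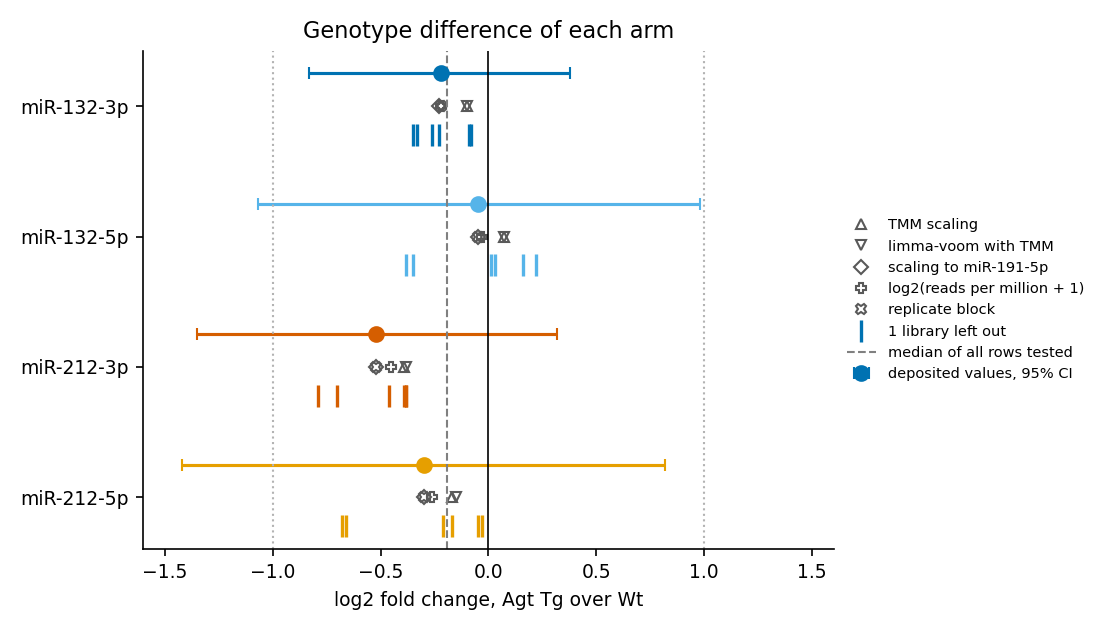
Log2 fold change of each arm, Agt Tg over Wt, with the 95% interval from limma (circles and bars, n = 3 mice per genotype), under 5 other settings (open symbols) and with 1 library left out (ticks). Every interval includes 0; the dashed line is the median of all 329 rows, −0.19, and dotted lines mark 2-fold.

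Shares and ratios within a library do not depend on scaling between libraries. The 4 arms together held 0.0187%, 0.0139% and 0.0198% of the reads on listed miRNAs in Wt replicates 1, 2 and 3, and 0.0187%, 0.0155% and 0.0121% in Agt Tg replicates 1, 2 and 3. The means, 0.0175% ± 0.00311 and 0.0154% ± 0.00329 (SD, n = 3), differed by less than either SD (two-sided exact permutation test, p = 0.6, where 3 mice against 3 cannot go below 0.1). Agt Tg minus Wt, the difference was −0.00205 percentage points, and −0.00382 without Wt replicate 2 (exact permutation p = 0.4). With all 6 libraries the share showed no difference between genotypes beyond the spread.

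The 2 hairpins differed in how their reads were divided between the arms. Reads of miR-132 were mostly 3p: its 3p over 5p ratio was 18.3, 31.1 and 26.6 in Wt replicates 1, 2 and 3, and 16.1, 33.8 and 19.5 in Agt Tg replicates 1, 2 and 3. miR-212 had similar reads of both arms, with ratios of 0.963, 1.51 and 1.12 in Wt and 0.876, 1.19 and 1 in Agt Tg replicates 1, 2 and 3. On the log2 scale the mean over the 6 libraries was 4.54 ± 0.44 for miR-132 and 0.13 ± 0.28 for miR-212 (SD, n = 6), and the ranges, 4.01 to 5.08 and −0.19 to 0.60, were far apart. In most hairpins one strand is loaded into Argonaute and the other degraded, and it is the loaded strand that silences targets.

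Set against the 60 hairpins with both arms above the floor in all 6 libraries, miR-212 was the most even, since 0 of the others had a mean log2 ratio closer to 0. The median distance from 0 over the 60 was 5.35, and 5 of them lay within 2-fold of balance. miR-132 was near the middle, with 32 of the 60 more one-sided than it. How readily either arm enters a library was not measured, nor how fully mouse reads matched the human-named rows, so these are ratios of reads.

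**Figure D3:**
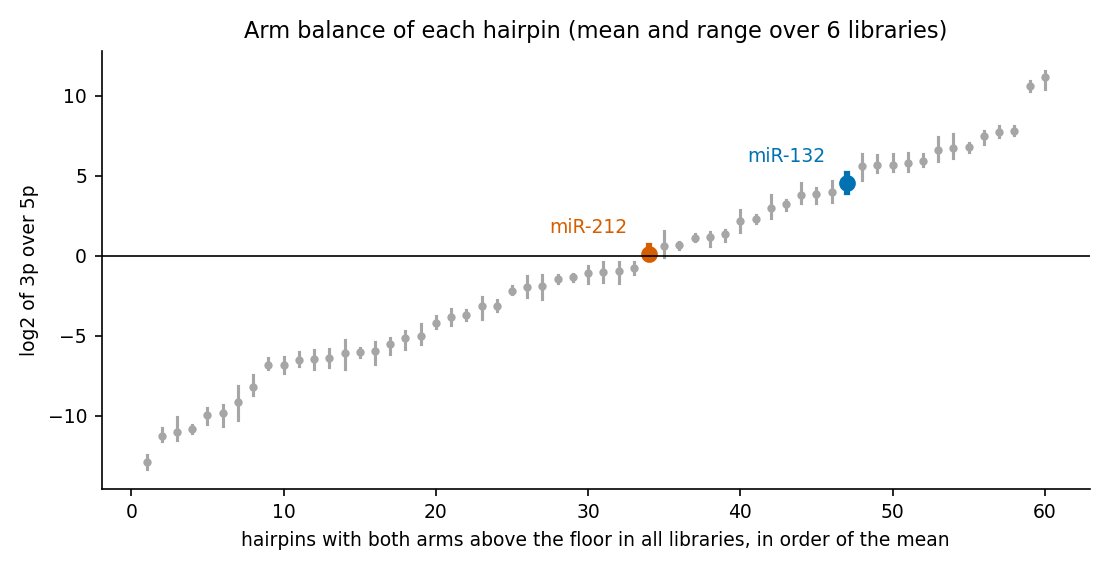
Log2 of the 3p over the 5p arm for the 60 hairpins with both arms above the floor in all 6 libraries, in order of the mean (points), with bars from the lowest to the highest library. miR-212 sits nearest to 0, with a mean of 0.13, and miR-132 has a mean of 4.54.

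Neither arm balance showed a genotype difference beyond the spread. That of miR-132 was 4.63 ± 0.39 in Wt and 4.46 ± 0.56 in Agt Tg mice (log2, SD, n = 3; exact permutation test, p = 0.8, adjusted p = 0.8 over 3 ratios). For miR-212 it was 0.24 ± 0.33 and 0.02 ± 0.22 (log2, SD, n = 3; exact permutation test, p = 0.5, adjusted p = 0.75). Without Wt replicate 2 the differences, −0.17 and −0.22, were −0.01 and −0.04.

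The proportion of the paralogues that share a seed gave the same picture. miR-132-3p had 7.38, 9.4 and 9.83 times the reads of miR-212-3p in Wt replicates 1, 2 and 3, and 8.57, 13.7 and 10.7 times in Agt Tg replicates 1, 2 and 3. The highest was in Agt Tg replicate 2, the library with the fewest reads, and the groups overlapped. On the log2 scale the means were 3.14 ± 0.22 and 3.43 ± 0.34 (SD, n = 3; exact permutation test, p = 0.4, adjusted p = 0.75). The difference of 0.29 was 0.34 without Wt replicate 2. Most reads able to use the shared seed were therefore those of miR-132-3p, in 6 of 6 libraries.

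In 3 of the 4 arms the SD within genotypes was larger than the difference between genotype means, the exception being miR-212-3p. For each of the 4 arms, the 3 highest libraries on the deposited values were Wt replicates 1 and 3 and Agt Tg replicate 1, and the 3 lowest were Wt replicate 2 and Agt Tg replicates 2 and 3. Under TMM scaling this held for 3 of the 4; for miR-132-3p Agt Tg replicate 2 (0.07 above its mean) took the place of Wt replicate 1 (−0.04). The SD within genotypes was 0.26 for miR-132-3p, 0.40 for miR-212-3p, 0.58 for miR-132-5p and 0.66 for miR-212-5p on the log2 scale, where the median was 0.38 over the 270 rows never at the floor. The 5p arms thus varied more than most rows, with 77.4% and 83.7% of the 270 less variable than miR-132-5p and miR-212-5p. miR-132-3p varied less than most. The 270 rows were not matched by level, and the part of counting error in this spread was not tested.

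Across the 6 libraries, miR-132-5p and miR-212-5p, which come from different hairpins of the same intron, had the highest correlation of the 6 pairs of arms (Pearson r = 0.967, exact permutation p = 0.00833; Spearman rho = 0.943, exact permutation p = 0.0167). Adjusted over the 6 pairs these p-values were 0.05 and 0.1. Without the 2 libraries farthest from the median of miR-132-5p, r was 0.958, and under TMM scaling 0.952. Within genotypes it was 0.99, near the 0.973 of the miR-212 arms and the 0.953 of miR-132-5p with miR-212-3p, while the pairs of miR-132-3p had 0.557 (miR-132-5p), 0.706 (miR-212-3p) and 0.63 (miR-212-5p). The arms of miR-212 had r = 0.903 (exact permutation p = 0.0472, adjusted p = 0.137; rho = 0.886, exact permutation p = 0.0333, adjusted p = 0.1), and 0.939 without the 2 farthest libraries.

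On the deposited values the pairs of miR-132-3p had the lowest r, though its 0.777 with miR-212-3p was close to the 0.783 of miR-132-5p with miR-212-3p. The 2 farthest libraries were taken from the median of a single arm of each pair, miR-132-3p in its own pairs. They were therefore not the same for every pair, and this order changed without them. No difference between pairs was tested for miR-132-3p. With its own 5p arm it had r = 0.518 (exact permutation p = 0.297, adjusted p = 0.297; rho = 0.6, exact permutation p = 0.242, adjusted p = 0.29), and 0.922 without the 2 farthest libraries. With miR-212-3p it had r = 0.777 (exact permutation p = 0.0778, adjusted p = 0.137; rho = 0.657, exact permutation p = 0.175, adjusted p = 0.262), and 0.695 without the 2 farthest. The remaining pairs, miR-132-3p with miR-212-5p and miR-132-5p with miR-212-3p, had r of 0.661 and 0.783 (exact permutation p = 0.15 and 0.0917, adjusted p = 0.18 and 0.137), rho of 0.543 and 0.771 (exact permutation p = 0.297 and 0.103, adjusted p = 0.297 and 0.206), and r of 0.911 and 0.698 without the 2 farthest libraries. Under TMM scaling the r of miR-132-3p fell to 0.336 with miR-132-5p, 0.584 with miR-212-3p and 0.467 with miR-212-5p, while that of miR-132-5p with miR-212-3p was 0.715 and that of the miR-212 arms 0.877. All 6 values of r on the deposited values were above 0, and none had an adjusted p under 0.05. Over the 60 hairpins the median r between both arms was 0.66; 8 of them exceeded miR-212 and 37 exceeded miR-132.

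The 3 libraries highest for each arm on the deposited values were also highest in the summed reads of the erythroid list, whose miRNAs mark red cells and their precursors. That sum is mostly miR-486-5p (mean log2 value 16.83), the only 1 of the 5 rows with these 3 libraries highest: miR-451a peaked in Agt Tg replicate 2 (12.68), miR-144-5p and miR-144-3p in Agt Tg replicate 3 (9.47 and 8.33), and miR-486-3p had Agt Tg replicate 3 among its 3 highest. All 5 rows of that list were tested, with 0 at the floor throughout and 0 of the 5 at the threshold (median log2 fold change 0.40). This median rests in part on Wt replicate 2, the lowest library for miR-451a, miR-486-5p and miR-486-3p (11.30, 15.55 and 5.71). In Wt replicates 1 and 3 miR-451a was at 12.49 and 12.47 and miR-486-5p at 17.34 and 17.38, above their Agt Tg means (12.38 and 16.90). The 5 rows summed to 172010, 50991 and 177232 reads per 10000000 in Wt replicates 1, 2 and 3, and to 208134, 111087 and 93203 in Agt Tg replicates 1, 2 and 3. The Pearson r of the arms with the erythroid sum, as a description, was 0.69 for miR-132-3p, 0.85 for miR-132-5p, 0.62 for miR-212-3p and 0.84 for miR-212-5p. With the leukocyte sum it was 0.70, 0.38, 0.85 and 0.55 and with the mural and fibroblast sum −0.87, −0.47, −0.79 and −0.66, in the same order. For both 3p arms these lists had values farther from 0 than the erythroid list. With the endothelial sum r was −0.74, −0.08, −0.56 and −0.25, farther from 0 than the erythroid list for miR-132-3p only. Each r includes Wt replicate 2, the lowest library of the erythroid sum. The part of the marker lists in the variation of the miR-132 and miR-212 arms was not tested.

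A leukocyte list (6 rows, 4 tested, led by miR-150-5p at a mean of 14.42, with miR-150-3p and miR-223-5p at the floor throughout) summed to 40640, 41780 and 42067 in Wt and to 38598, 30975 and 28282 in Agt Tg replicates 1, 2 and 3. Its sum shared 2 of the 3 highest libraries with each arm, and 0 of its 4 tested rows reached the threshold (median log2 fold change −0.59). Of the 12 rows of a neuron list, 4 were tested and 6 were at the floor in all 6 libraries, both arms of miR-124 among them. The tested rows, given as Wt and Agt Tg means, were miR-128 (8.49 and 7.88), miR-138-5p (7.26 and 7.04), miR-218-5p (6.60 and 7.05) and miR-9-5p (3.91 and 4.90), all above the floor in 6 of 6 libraries.

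By summed reads, the other marker lists shared between 0 and 2 of their 3 highest libraries with the arms. The endothelial list (2 of 2 rows tested, led by miR-126-5p) had 0 rows at the threshold, a median log2 fold change of 0.23 and 1 highest library in common with each arm. The mural and fibroblast list (8 of 8 tested, led by miR-143-3p) had 0 rows at the threshold, a median of −0.12 and 0 highest libraries in common. In the adipocyte list 0 of 6 rows were at the threshold (median 0.09), in the neuron list 0 of 4 (median 0.11) and in the muscle list 0 of 1 (miR-133a, −0.51). The adipocyte median rests in part on Wt replicate 2, the lowest library for miR-378a-3p, miR-378a-5p and miR-365a-3p (15.24, 8.22 and 11.53). In Wt replicates 1 and 3 each of these rows was above its Agt Tg mean. The neuron median, too, includes Wt replicate 2, the highest Wt library for miR-218-5p and miR-9-5p (7.56 and 4.52). Medians of the marker lists without this library were not computed. miR-133a, too, was highest in Wt replicate 2 (10.72, beside 8.92 to 9.35 in the other 5 libraries), where the muscle list summed to 1699 and elsewhere to between 485 and 651. The lists raised most in Wt replicate 2 had 1 of 7 rows at the threshold for epithelium (miR-205-5p, median of the list −2.39) and 0 of 2 for epididymis and testis (median −1.90).

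**Figure D4:**
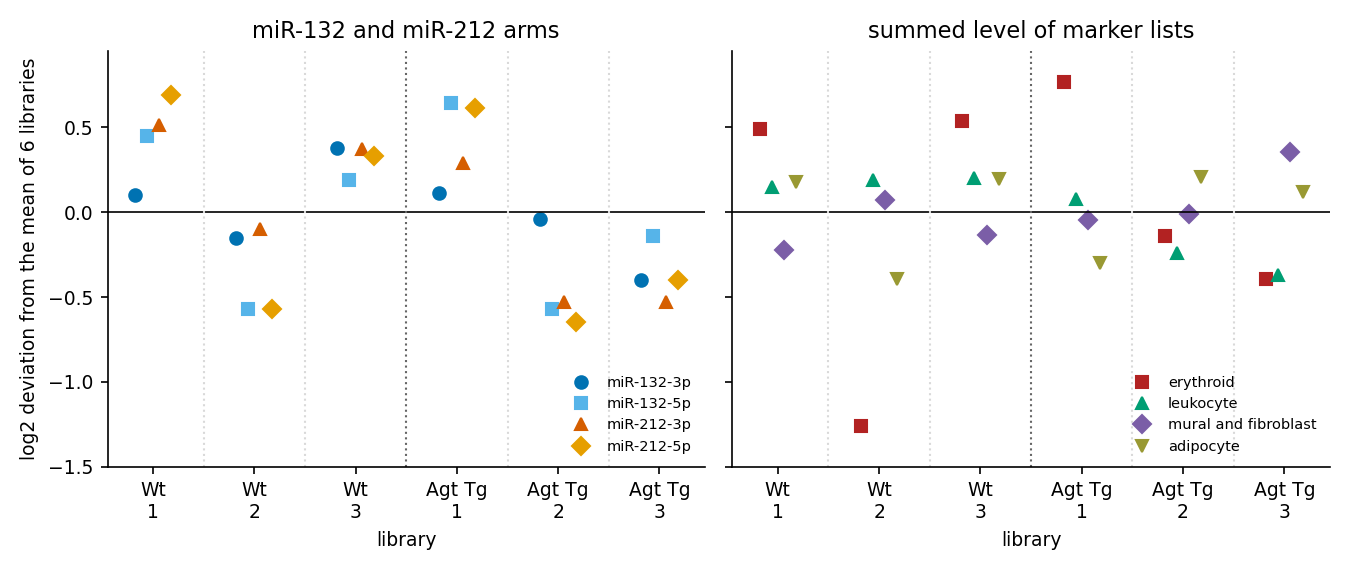
Left, log2 deviation of each arm from its mean over the 6 libraries; right, the same for the summed reads per 10000000 of 4 marker lists (log2). Wt replicates 1 and 3 and Agt Tg replicate 1 are above 0 for all 4 arms and for the erythroid sum, which is mostly miR-486-5p.

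The rows most like each arm over the 6 libraries, among 266 other rows above the floor in all of them, are given by Pearson r as a description. For miR-132-3p they were miR-574-3p (0.976), miR-296-5p (0.940), miR-532-3p (0.917), let-7b-3p (0.916) and let-7i-3p (0.896). For miR-212-3p they were miR-92a-3p (0.990), miR-27a-5p (0.978), miR-127-3p (0.975), miR-409-3p (0.972) and miR-223-3p (0.971). For miR-212-5p they were miR-485-5p (0.959), miR-1249 (0.943), miR-15b-3p (0.941), miR-127-3p (0.937) and miR-181a-3p (0.934). For miR-132-5p they were miR-409-5p (0.944), miR-485-5p (0.939), miR-423-5p (0.934), miR-15b-3p (0.923) and miR-4450 (0.912). miR-485-5p and miR-15b-3p were thus on the lists of both 5p arms, and with 6 libraries and 266 rows high values of r are easily reached; the median over those rows lay between 0.14 and 0.26.

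Other miRNAs that published work ties to Ang II or its receptor were followed as a list of 19 rows. Of these, 13 were tested, and 4 were at the floor in all 6 libraries. These were both arms of miR-155, which is known to target the AT1 receptor mRNA, and both arms of miR-483. The rows carry human names, so this does not show that the mouse miRNAs were absent. None of the 13 reached the threshold (0 of 13, beside 4.86% of all rows), with 2 values above and 11 below 0 and a median log2 fold change of −0.34, beside −0.19 and 67.5% below 0 over all rows tested. Under TMM scaling the split was 3 and 10 and the medians −0.22 and −0.06, and without Wt replicate 2 the split was again 3 and 10, with medians of −0.17 and −0.18. With other libraries left out the median of the list reached −0.49 (Wt replicate 1), −0.57 (Wt replicate 3) and −0.78 (Agt Tg replicate 1, where all rows had −0.25). With all 6 libraries the Ang II list, like the miR-132 and miR-212 arms, thus held no miRNA that passed the test.

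Within that list miR-21-5p, a miRNA of fibrosis and inflammation and the most abundant of the list, had means of 16.20 ± 0.38 for Wt and 15.95 ± 0.43 for Agt Tg mice (SD, n = 3; log2 fold change −0.25, limma adjusted p = 0.71). With 1 library left out its log2 fold change ran from −0.47 (without Wt replicate 3) to −0.00 (without Agt Tg replicate 2). miR-221-3p and miR-222-3p, a vascular pair, had log2 fold changes of −0.60 and −0.98 (limma adjusted p = 0.587 for both). Agt Tg replicate 1 was the highest library for both (12.61 and 13.57), while Agt Tg replicates 2 and 3 were below every Wt library (11.34 and 11.04 for miR-221-3p, 11.11 and 11.03 for miR-222-3p). Without Agt Tg replicate 1 both, and miR-222-5p, reached the unadjusted threshold (−1.07, −1.81 and −1.98, limma adjusted p = 0.187 for each), beside 35 of all 329 rows. With all libraries miR-222-5p and miR-221-5p had −1.08 and −0.12, the latter with its sign turned in voom with TMM (0.02).

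The miR-29 rows, which restrain collagen genes, had log2 fold changes of −0.23 for miR-29a-3p, 0.14 for miR-29b-3p and −0.34 for miR-29c-3p, and −1.0, −0.33 and 0.58 for miR-29a-5p, miR-29b-1-5p and miR-29c-5p, which were at or near the floor in some libraries. miR-129-5p and miR-129-2-3p had −1.4 and −0.96; the first was at 7.42 in Wt replicate 2 and at 3.61 or less in every other library, where the floor hides how low it was. Without Wt replicate 2 it was −0.08, and miR-129-2-3p and miR-29a-5p fell to −0.34 and −0.51. In that setting miR-29b-1-5p and miR-29c-5p stood at −0.09 and 0.96. With each library left out in turn these 5p rows ran from −0.55 to −0.09 and from 0.33 to 1.06. The unadjusted threshold was reached by miR-129-2-3p without Wt replicate 1 (−1.36, limma adjusted p = 0.72) and by miR-29a-5p without Agt Tg replicate 3 (−1.66, limma adjusted p = 0.802). With all 6 libraries none of these had a limma adjusted p under 0.553.

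The list of miRNAs tied to CREB or neuronal activity had 10 rows, of which 7 were tested: the 4 arms, miR-134, miR-184 and miR-9-5p. With 1 value above and 6 below 0, its median was −0.30, and 2 of the 7 reached the unadjusted threshold, beside 4.86% of all rows; under TMM scaling the split was 2 and 5, the median −0.17 and 1 of the 7 reached it. Without Wt replicate 2 the median was −0.66 and 3 of the 7 reached it, beside 23 of all 329 rows, with miR-9-5p (1.30) as the third. It was reached by 0 of the 7 without Wt replicate 3 or Agt Tg replicate 3, by 1 without Wt replicate 1 or Agt Tg replicate 1, and by 2 without Agt Tg replicate 2. Of all 329 rows it was reached by 22, 13, 12, 35 and 13 in the same order, and by 15 under TMM scaling. miR-134, a brake on dendritic spine growth, had log2 values of 6.20, 6.0 and 6.42 in Wt and 5.12, 5.40 and 5.09 in Agt Tg replicates 1, 2 and 3, so that the groups did not overlap (log2 fold change −1.0, standard error 0.28, limma adjusted p = 0.382). miR-184 had 5.67, 5.44 and 6.25 in Wt and 5.20, 4.82 and 3.73 in Agt Tg replicates 1, 2 and 3, again without overlap (−1.21, standard error 0.46, limma adjusted p = 0.485). The groups thus did not overlap in 2 of the 7 rows, beside 1 of 13 in the Ang II list (miR-29a-3p) and 17.6% of all rows tested. Under TMM scaling miR-134 missed the fold threshold (−0.88), and on log2(RPM + 1) both missed it (−0.84 and −0.92).

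miR-9-5p, the third of these outside the pair, was just short of the fold threshold at 0.99 (standard error 0.48, limma adjusted p = 0.531), with reads near the floor. Both rows of miR-124 and the row of miR-9-3p were at the floor in all 6 libraries. The miR-132 and miR-212 arms, the best known CREB targets of the list, had the smallest differences between genotypes among its tested rows on the deposited values.

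**Figure D5:**
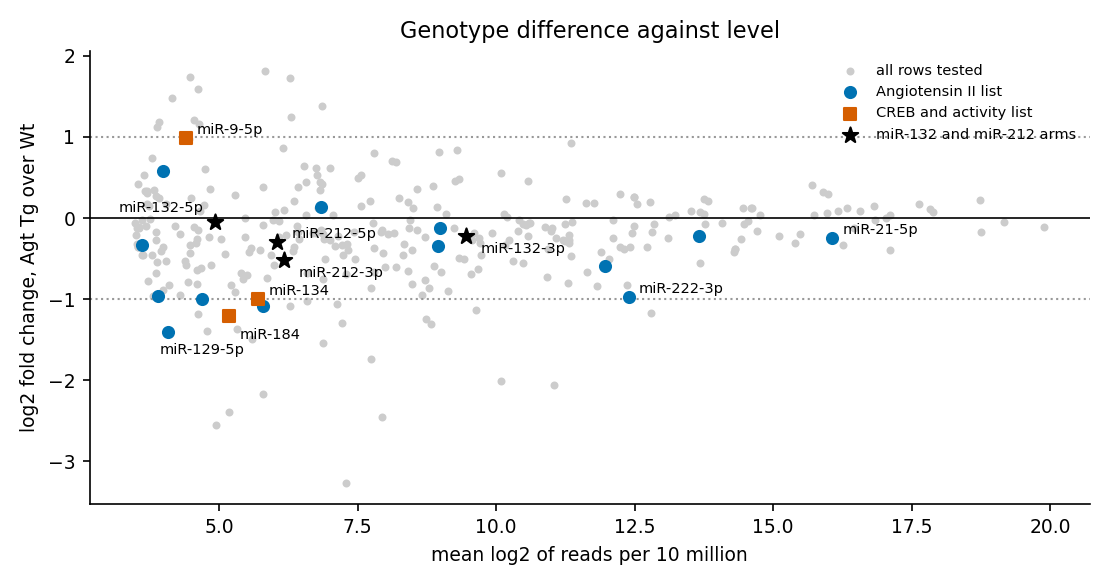
Log2 fold change, Agt Tg over Wt, against the mean log2 of reads per 10000000 for all 329 rows tested (grey), the Angiotensin II list (circles), the CREB and activity list (squares) and the 4 arms of miR-132 and miR-212 (stars). The arms lie between −0.52 and −0.05, inside the dotted lines at 2-fold.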

How the data were processed

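Small RNA libraries of epididymal WAT from 3 Wt and 3 Agt Tg mice were used, 1 column each, grouped by the sample labels. The authors mapped reads to miRBase precursors, kept those on mature miRNAs and deposited log2 values. Which miRBase release was used, and with how many mismatches, is not given in the sources used here, and mm10 is the build named in the submitters' processing notes. Whole reads were recovered from the values (1924 of 1924 above the floor within 0.02 reads), which gave the library totals and showed that the values are reads per 10000000, raised to 10 where lower (6.39 to 10.6 reads).

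Rows with 3 or more libraries above the floor were tested, on the values as deposited, with limma 3.58.1 (R 4.3.3, variance trend, genotype as the only term), with Benjamini-Hochberg adjustment over all 329. A count model had been foreseen only for raw counts. Shares and ratios had two-sided exact permutation tests (scipy 1.17.1). TMM factors trimmed 30% of log ratios and 5% of levels. No pair of libraries of a group differed by as little as sampling noise. Longest 3′ UTRs came from GENCODE M21 and sequences from RefSeq tables. Rows named were the arms, every tested miRNA of the Ang II and CREB lists, the 5 most correlated and the nearest rows by level, the most abundant row, miR-191-5p and the leaders of marker lists; others were chosen after their values were seen. The members and lists were chosen with earlier results of these data known. Expression arrays of the study were not used.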

Additional observations from a re-analysis of the deposited data

How the results depend on the processing

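The arms of miR-132 and miR-212 missed the threshold under every alternative that could be computed for them. With each library left out in turn, the log2 fold change ran from −0.35 to −0.08 for miR-132-3p, from −0.38 to 0.22 for miR-132-5p, from −0.79 to −0.38 for miR-212-3p and from −0.68 to −0.03 for miR-212-5p. Only miR-132-5p turned its sign, to 0.07 under TMM scaling, 0.07 with limma-voom and TMM, and 0.16 and 0.03 when Wt replicate 1 or 3 was left out, or 0.22 and 0.01 when it was Agt Tg replicate 2 or 3; the cause was not tested. The arm balance of miR-132 differed by −0.48 to 0.05, with its sign turned (0.05) without Agt Tg replicate 1, that of miR-212 by −0.36 to −0.04, the ratio of the 3p arms by 0.12 to 0.46 and the share by −0.00382 to −0.000396 percentage points. A filter at a mean RPM of 10 kept miR-132-3p and dropped the other 3 arms. Without a filter, the 1610 rows at the floor in all libraries could not be fitted, since they have no variance, and 373 rows were tested.

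The count at the unadjusted threshold was 16. It was 7 on log2(RPM + 1), 3 of 209 with the filter at a mean RPM of 10, 30 with no fold threshold, and 12 to 35 with a library left out (35 without Agt Tg replicate 1). The deposited values gave 9 higher and 7 lower, TMM scaling 10 and 5, limma-voom 10 and 4; leaving out Agt Tg replicate 1 turned this to 10 and 25, and leaving out Wt replicate 3 to 9 and 13. The adjusted count was 0 throughout. The labels share replicate numbers, but libraries of the same number did not deviate together (correlations of 0.22, −0.18 and −0.21). With the number as a block the count was 17, and the arms of miR-132 (−0.22 and −0.05) and miR-212 (−0.52 and −0.30) stood as before.

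Of the other 16 miRNAs of both lists, 13 kept their sign under every alternative. With each library left out in turn, miR-29b-3p ran from −0.19 to 0.59, miR-29c-3p from −0.66 to 0.05 and miR-221-5p from −0.80 to 0.33, and miR-221-5p stood at 0.00 under TMM scaling and 0.02 with limma-voom. The values of miR-134 and miR-184 at the threshold depended on the setting. miR-134 missed the fold threshold on log2(RPM + 1) (−0.84), with TMM (−0.88), with limma-voom (−0.87), and also when Wt replicate 3 (−0.89) was left out, or Agt Tg replicate 1 (−0.96) or 3 (−0.94). For miR-184 it was missed on log2(RPM + 1) (−0.92) and without Wt replicate 3 (−0.97) or Agt Tg replicate 3 (−0.78), and the p-value was missed with the block (−1.21) and without Wt replicate 1 (−1.27) or Agt Tg replicate 2 (−1.32). miR-9-5p reached the threshold without Wt replicate 2 (1.30) or Agt Tg replicate 2 (1.32).

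With 3 mice a group and 13 to 105 reads a library for the lower arms, changes of up to 2-fold lay within the intervals of miR-132-5p and miR-212, at least in one direction.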
